A study of Mus musculus with 4 samples.

Results

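The genes described here encode the subunits of the AMPA and NMDA classes of glutamate receptor. They were taken as every probe set of the array whose only gene symbol in the platform's probe-gene table was Gria1, Gria2, Gria3, Gria4, Grin1, Grin2a, Grin2b, Grin2c or Grin2d. This gave 12 probe sets of 8 genes, out of 8252 genes with a probe set of their own. No probe set had Grin1, the subunit shared by all NMDA receptors, as its only symbol, and Grin1 was not analysed here. Of the 12 probe sets, 10 were bright enough to test, and both probe sets left out (Gria4 and the dimmest of the 4 for Gria2) are described by their signals alone.

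The tissue was visual cortex of wild-type C57Bl6 mice, measured on 2 deprived and 2 non-deprived single-colour Affymetrix arrays. Per the labels, 5 mice were kept in the dark from birth, had an eye removed at postnatal day 42, spent the next 4 days under a cycle of light and dark, and were killed at postnatal day 46. Deprived cortex lay contralateral to the removed eye and non-deprived cortex ipsilateral to it, so both groups had been dark reared and both came from operated animals. Each array held pooled tissue. The labels do not say how the mice were split over the pools, so a p-value here reflects only how far these arrays spread. In bulk tissue, fewer cells of a type and less RNA per cell cannot be told apart.

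AMPA receptors carry the fast part of the excitatory synaptic current, and their subunits GluA1 to GluA4 are encoded by Gria1, Gria2, Gria3 and Gria4. NMDA receptors combine the obligatory subunit from Grin1 with subunits from the Grin2 genes, and admit calcium when glutamate arrives at a depolarised membrane. In rodent visual cortex, receptors rich in the Grin2b product dominate early in life, the Grin2a product gains ground as the animal sees, and rearing in the dark is known to delay that change.

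Among the subunits, the NMDA receptor gene Grin2b stood furthest apart between the sides, at 80.9 ± 15.2 signal units in deprived cortex and 353.8 ± 138 in non-deprived cortex (SD over 2 arrays each). Grin2a had the opposite sign, and the ratio of Grin2a to Grin2b signal was higher on both deprived arrays than on either non-deprived array. The AMPA subunit Gria3 and the dimmer of the 2 Gria1 probe sets were also lower on both deprived arrays. The 3 tested probe sets of Gria2 and that of Grin2c overlapped between the groups. None of the 10 tested probe sets passed an adjusted p of 0.05 in limma's fit across 7458 probe sets, in which 0.107% of all probe sets passed in either direction. Before adjustment, 3 member probe sets had a p under 0.05 with a lower signal in deprived cortex and 0 with a higher one, where 3.66% of all tested probe sets were lower and 1.77% higher.

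**Figure D1:**
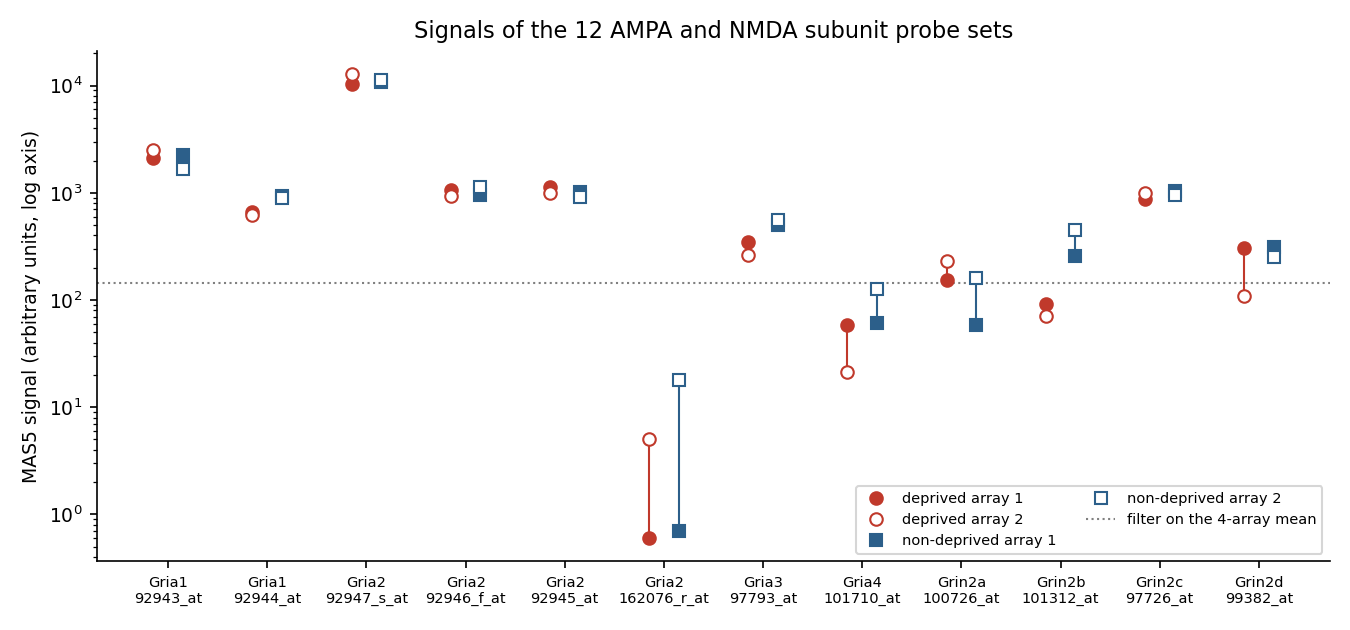
MAS5 signal (arbitrary units, log axis) of each of the 12 probe sets, with circles for deprived and squares for non-deprived arrays, filled for array 1 and open for array 2; the dotted line is the minimum 4-array mean for testing, 142.9. Grin2b, Gria3, Gria4 and the Gria1 probe set 92944_at are lower on both deprived arrays, and the other 8 probe sets overlap between the groups.

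Gria1 encodes GluA1, the AMPA subunit that is added to synapses during potentiation, and its probe sets disagreed. At the dimmer, 92944_at, the signal was 663.5 and 625.4 on deprived arrays 1 and 2, against 941.5 and 899.2 on non-deprived arrays 1 and 2. The arrays of a group lay close together, at 1.06-fold and 1.05-fold of each other, and the groups did not overlap. The fitted difference, deprived minus non-deprived on the log2(signal + 60.6) scale used for every fitted difference here, was -0.48 ± 0.20 (SE; 95% interval -0.92 to -0.03), with an adjusted p of 0.89 in limma. At the brighter, 92943_at, the signal was 2110 and 2519 on deprived arrays, against 2252 and 1677 on non-deprived arrays. These groups overlapped, and the difference was 0.24 ± 0.19 (95% interval -0.18 to 0.66). It moved with single arrays, to 0.03 without non-deprived array 2, 0.12 without deprived array 2, 0.36 without deprived array 1 and 0.45 without non-deprived array 1. The signal of the dimmer over that of the brighter probe set was 0.314 and 0.248 on deprived arrays, against 0.418 and 0.536 on non-deprived arrays. Which part of the Gria1 transcript each probe set reads was not analysed here.

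Gria2 encodes GluA2, the subunit that, once its RNA is edited, makes AMPA receptors nearly impermeable to calcium. Its brightest probe set, 92947_s_at, had 10454 and 12834 on deprived arrays, against 10821 and 11209 on non-deprived arrays. The deprived arrays lay to both sides of the non-deprived ones, and the difference was 0.07 ± 0.20 (95% interval -0.37 to 0.51). Probe set 92945_at had 1143 and 1004 on deprived arrays, against 1010 and 917.5 on non-deprived arrays, with a difference of 0.15 ± 0.19 (95% interval -0.27 to 0.56). Probe set 92946_f_at, whose suffix marks probes that can match a sequence family, had 1051 and 943.2 on deprived arrays, against 952.2 and 1140 on non-deprived arrays. Its difference was -0.06 ± 0.19 (95% interval -0.49 to 0.36), so that the intervals of all 3 tested Gria2 probe sets included 0. The fourth, 162076_r_at, gave 0.6 and 5.1 on deprived and 0.7 and 17.8 on non-deprived arrays, and was too dim to test.

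Gria3 encodes GluA3, which pairs with GluA2 in cortical AMPA receptors. Its signal was 350.8 and 260.4 on deprived arrays, against 503.4 and 557.5 on non-deprived arrays. Both deprived arrays lay below both non-deprived arrays, and the difference was -0.70 ± 0.28 (SE; 95% interval -1.32 to -0.08; 1.62-fold lower), with an adjusted p of 0.83 in limma. Over the 4 pairings of arrays from either side it ran from -0.95 to -0.46. Gria4 encodes GluA4, an AMPA subunit of fast-spiking inhibitory neurons. It gave 58.5 and 21.1 on deprived arrays, against 60.8 and 125.6 on non-deprived arrays. Deprived array 1 and non-deprived array 1 differed by little beside the 2.77-fold gap between the deprived arrays, and its 4-array mean of 66.5 was below the minimum for testing.

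Grin2b encodes GluN2B, the NMDA subunit whose currents decay more slowly than those of GluN2A. Its signal was 91.7 and 70.2 on deprived arrays, against 255.9 and 451.7 on non-deprived arrays. The groups did not overlap, although the non-deprived arrays differed from each other by 1.77-fold. The fitted difference was -1.51 ± 0.49 (SE; 95% interval -2.58 to -0.45), 2.85-fold lower in deprived cortex, with an unadjusted p of 0.0093 and an adjusted p of 0.55 in limma. Only 17 of the 7458 tested probe sets were lower still by this difference, and 125 had a smaller p. In every pair of arrays the difference was at least 1.5-fold, and it ran from -1.97 to -1.06. Grin2b was the only 1 of the 10 tested member probe sets that did so, where 1.58% of all tested probe sets were lower and 0.322% higher by that rule. Both deprived signals lay below the minimum of 142.9 for the 4-array mean, so Grin2b was tested because of its signal in non-deprived cortex.

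Grin2a encodes GluN2A, the NMDA subunit with faster decay that prevails in the mature cortex. Its signal was 153.6 and 229.4 on deprived arrays, against 58.6 and 161.3 on non-deprived arrays. The groups overlapped by a small margin, since deprived array 1 lay just below non-deprived array 2, and the non-deprived arrays differed by 2.75-fold. The difference was 0.62 ± 0.58 (SE; 95% interval -0.65 to 1.88), with an adjusted p of 0.999 in limma. The 4-array mean of 150.7 was just above the minimum for testing, and the non-deprived mean of 109.9 was below it. The difference was 0.17 without non-deprived array 1 and 1.06 without non-deprived array 2. Grin2a and Grin2b each had a single probe set, so neither could be set beside another probe set of the same gene.

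Grin2c encodes an NMDA subunit best known from the cerebellum, the thalamus and astrocytes, with weak magnesium block. Its signal was 880.2 and 985.2 on deprived arrays, against 1044 and 943.7 on non-deprived arrays. These groups overlapped, and the difference was -0.09 ± 0.19 (95% interval -0.51 to 0.34). Grin2d encodes the slowest of the NMDA subunits, found in cortex mainly in inhibitory neurons. It had 306.4 and 109.1 on deprived arrays, against 314.7 and 253.3 on non-deprived arrays. Deprived array 2 alone stood low, and the difference of -0.46 ± 0.45 (95% interval -1.45 to 0.53) became 0.10 without that array.

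**Figure D2:**
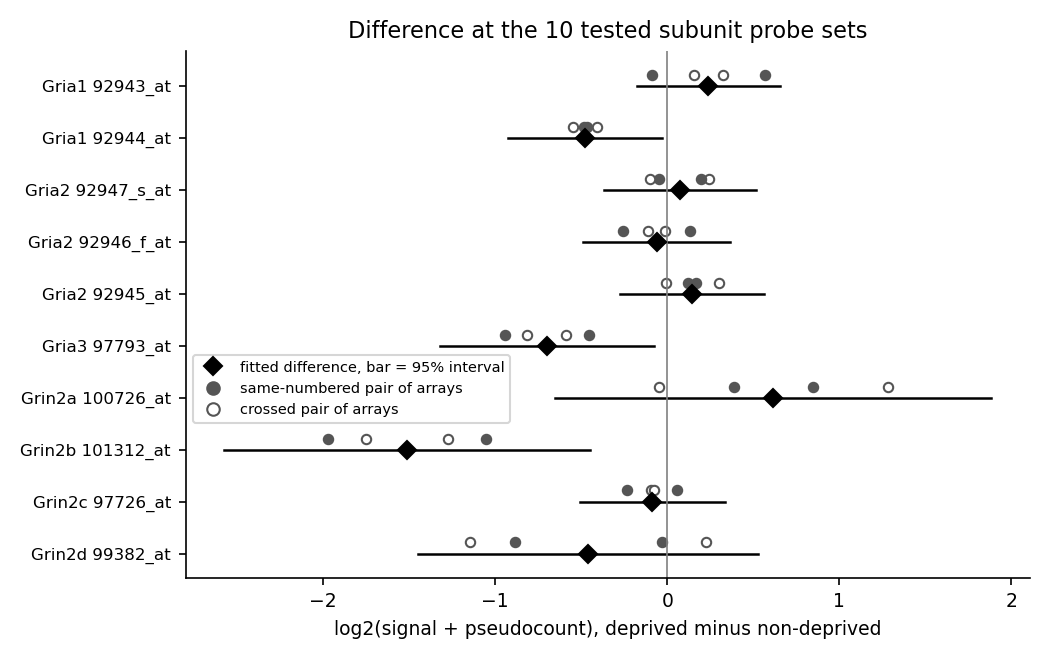
Difference in log2(signal + 60.6), deprived minus non-deprived, at the 10 tested probe sets; diamonds and bars are limma's fitted difference with its 95% interval, not adjusted for the number of probe sets, and dots are the 4 pairs of arrays, filled where the pair shares a replicate number. The interval lies below 0 for Grin2b, Gria3 and Gria1 92944_at, and includes 0 for the other 7.

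By counts, 6 of the 10 tested member probe sets were lower and 4 higher in deprived cortex, with a median difference of -0.07, where 49.8% of all tested probe sets were lower and the median over all was 0.0015. The groups did not overlap at 3 of the 10, all of them lower in deprived cortex, where 17.1% of all tested probe sets were lower and 15.1% higher without overlap. The 6 AMPA probe sets had a median of 0.01, with 3 lower and 3 higher. The 4 NMDA probe sets had a median of -0.27, with 3 lower and 1 higher. Because Grin2b and Grin2a passed the filter on the strength of their brighter group, these counts are a description.

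The ratio of Grin2a to Grin2b signal on each array was 1.68 and 3.27 on deprived arrays 1 and 2, against 0.229 and 0.357 on non-deprived arrays 1 and 2. Both deprived arrays lay above both non-deprived arrays. Each gene is read by probes of its own affinity, so the ratio of an array does not give the ratio of the transcripts, and only differences in it between arrays can be read. Scaling an array by a constant leaves it unchanged. On the log2 scale the ratio averaged 1.23 ± 0.68 over the deprived arrays and -1.81 ± 0.45 over the non-deprived arrays (SD, n = 2 each). The difference was 3.03, an 8.18-fold higher ratio in deprived cortex, with a two-sided exact permutation p of 0.333, the smallest that 2 arrays against 2 can give. Between arrays with the same replicate number the ratio differed 7.31-fold for number 1 and 9.15-fold for number 2.

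Behind the ratio, the mean log2 signal without a pseudocount differed by -2.08 for Grin2b and by 0.95 for Grin2a, deprived minus non-deprived. Grin2b was dim on the deprived arrays and Grin2a on the non-deprived arrays. With 60.6 added to every signal, the ratio was 1.41 and 2.22 on deprived arrays, against 0.377 and 0.433 on non-deprived arrays, and the log2 difference was 2.13. The deprived arrays again lay above the non-deprived arrays. MAS5 detection calls were not used here, so it is not known whether these signals were above background on each array.

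**Figure D3:**
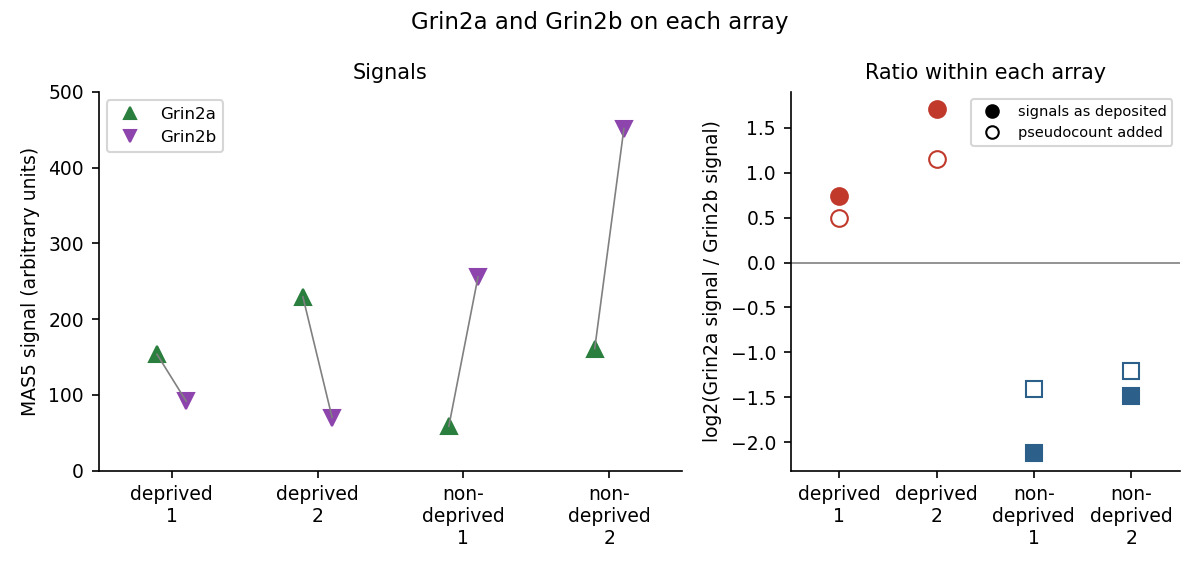
Left, MAS5 signal of Grin2a (upward triangles) and Grin2b (downward triangles) on each array, in arbitrary units. Right, log2 of the Grin2a signal over the Grin2b signal on each array, filled as deposited and open with 60.6 added to each signal; both deprived arrays lie above both non-deprived arrays, while the position of 0 depends on the probes.

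The probe sets whose signals over the 4 arrays were most like those of Grin2b, by the root mean square distance between mean-centred log2(signal + 60.6) values, read Ywhag (0.10), Norad (0.12) and Tm7sf2 (0.19). Ywhag, an adaptor that binds phosphorylated proteins, had 389.2 and 284.3 on deprived arrays, against 900.0 and 1559 on non-deprived arrays (adjusted p = 0.063 in limma, and 0.012 with the replicate number as a block). Norad, a long noncoding RNA, fell by 1.29 ± 0.21 (SE, log2; adjusted p = 0.048 in limma, but 0.14 without non-deprived array 2), and Tm7sf2, a sterol reductase, differed by -1.22 ± 0.46 (adjusted p = 0.75). With 4 arrays, likeness of this kind describes which arrays were high and says no more.

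Other glutamate receptor genes were few on the array. Of 9 listed genes for further NMDA-family, kainate and delta subunits, 4 had a probe set and 3 were tested, with a median of -0.34. Grid1, a delta receptor subunit that organises synapses, had 693.5 and 479.2 on deprived arrays, against 774.4 and 1038 on non-deprived arrays, a difference of -0.59 ± 0.25 (adjusted p = 0.88 in limma). It was -0.34 without deprived array 2 and -0.39 without non-deprived array 2. Grik5, a kainate receptor subunit, gave -0.34 ± 0.17 at its brighter probe set without overlap, and 0.72 ± 0.41 with overlap at its dimmer. Grik2, also of the kainate class, gave 0.02 ± 0.49. Grm8, a presynaptic metabotropic receptor, was the only 1 of 8 listed metabotropic genes with a probe set, and gave -0.33 ± 0.39.

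Among genes for proteins that carry AMPA receptors to the synapse and hold them there, none passed the adjusted threshold in limma, and the secreted pentraxins Nptx2 and Nptx1 had the smallest p. Of the 2 tested auxiliary subunit genes, Cacng2, which encodes stargazin, gave -0.05 ± 0.18, and Cnih2, which helps export the receptor, gave 0.10 ± 0.19. Of 23 listed scaffold and trafficking genes 11 had a probe set and 10 were tested, 8 of them lower, with a median of -0.21, while an unadjusted p under 0.05 was reached by 3 lower genes and 1 higher gene. Over all tested probe sets, 49.8% were lower, and such a p was reached by 3.66% that were lower and 1.77% that were higher. Nptx2, a secreted pentraxin that clusters AMPA receptors, had 710.5 and 462.5 on deprived arrays, against 1275 and 1161 on non-deprived arrays. The groups were well apart, and the difference was -1.01 ± 0.23 (SE). Its adjusted p was 0.23, and 0.034 when the replicate number entered the fit as a block. Nptx1, its relative, gave -0.84 ± 0.25 (adjusted p = 0.48), and -0.43 without deprived array 1. Nsf, the ATPase that binds the GluA2 tail, gave -1.12 ± 0.39 with overlapping groups (adjusted p = 0.67), and 0.012 as adjusted p with the block. Deprived array 1 decided much of the Nsf value, which was -0.35 without it and -1.88 without deprived array 2. In the other direction, Dlg4, which encodes the scaffold PSD-95, had 3934 and 4057 on deprived arrays, against 3060 and 2987 on non-deprived arrays. That difference of 0.39 ± 0.16 had an adjusted p of 0.84. Dlg4 was outside the rule for named genes and was chosen after its values were seen.

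Of 18 listed kinases and phosphatases that act on these receptors, 14 were tested, 10 of them lower, with a median of -0.08 and 0 past the adjusted threshold in limma, while an unadjusted p under 0.05 was reached by 3 lower genes and 0 higher ones, beside the same 3.66% lower and 1.77% higher over all tested probe sets. Src, a tyrosine kinase that raises NMDA receptor current, had 62.8 and 73.9 on deprived arrays, against 419.6 and 460.6 on non-deprived arrays. The arrays of a group nearly coincided, and the difference was -1.96 ± 0.44 (adjusted p = 0.21, and 0.047 with the block). Src is, like Grin2b, a probe set that was dim on both deprived arrays. Camk2a, the calcium-activated kinase of excitatory synapses, gave -1.74 ± 0.43 at its dimmer probe set (adjusted p = 0.29, and 0.032 with the block) and -0.62 ± 0.21 at its brighter, without overlap at either. Without deprived array 1 the dimmer gave -1.03. Ppp3cb, a catalytic subunit of calcineurin, gave -0.94 ± 0.23 (adjusted p = 0.29).

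For glutamate transport and synthesis, 3 of 8 listed genes were tested, with a median of -0.07. Slc1a2, the main astrocyte glutamate transporter, had 361.9 and 178.0 on deprived arrays, against 570.2 and 576.4 on non-deprived arrays, a difference of -0.997 ± 0.33 (adjusted p = 0.58 in limma), or -0.59 without deprived array 2. Slc1a1, a neuronal transporter, gave 0.27 ± 0.32, and Glul, which makes glutamine, 0.09 ± 0.23 at its dimmer and -0.07 ± 0.18 at its brighter probe set. Adarb1, the enzyme that edits Gria2 RNA, gave 0.19 ± 0.19 and 0.15 ± 0.19 at its 2 probe sets, and Adar -0.58 ± 0.43. Arrays of this kind read transcript level and not the edited state.

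**Figure D4:**
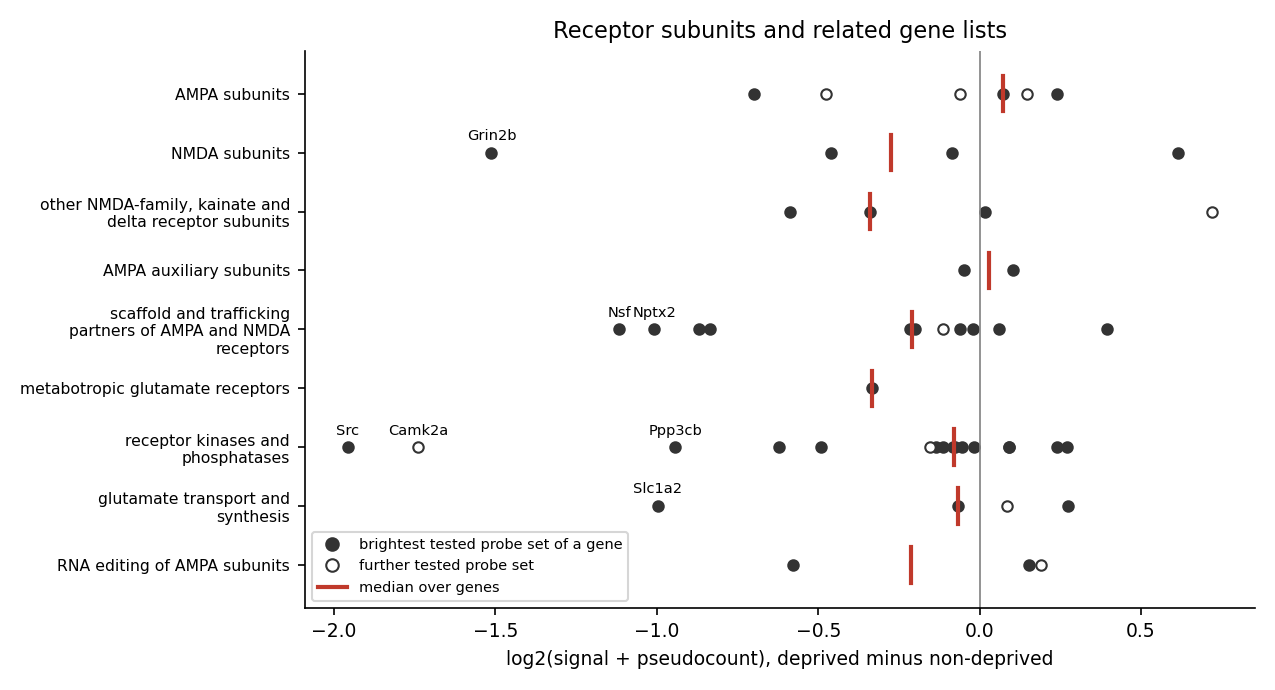
Difference in log2(signal + 60.6), deprived minus non-deprived, for tested probe sets of the receptor subunits and 7 related gene lists; filled dots are each gene's brightest tested probe set, open dots its further probe sets, red bars the median over genes, and names mark differences beyond 0.9 in size. No probe set drawn passed an adjusted p of 0.05 in limma.

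The arrays had median signals from 189.9 to 246, and the lowest mean correlation with the others was 0.91, on deprived array 1. The activity-induced gene Fos had 1107 and 1352 on deprived arrays, against 3019 and 3568 on non-deprived arrays (adjusted p = 0.020 in limma). As a measure of RNA integrity, the 5′ over 3′ signal of actin was 0.544 and 0.463 on deprived arrays, against 0.638 and 0.632 on non-deprived arrays, and that of Gapdh 0.745 and 0.689 on deprived arrays, against 0.875 and 1.07 on non-deprived arrays. Both ratios were thus lower on the arrays where Grin2b, Gria3 and Gria1 92944_at were lower, and their part in these differences was not tested. Of the markers of excitatory cortical neurons, Tbr1 lay between 3331 and 4396 and Nrgn between 7654 and 10285. Others were dim, with Neurod6 between 178.0 and 291.7 and Neurod1 between 131.5 and 255.8. Of the cerebellar markers, Gabra6 did not exceed 161.2 at either probe set. Cbln1 had 760.6 and 518.5 on deprived arrays, against 446.4 and 452.7 on non-deprived arrays, without overlap. Zic1 had 396.6 and 296.7 on deprived arrays, against 345.9 and 215.1 on non-deprived arrays. Of the 4 tested cerebellar genes 1 was lower and 3 higher at the brightest probe set, with a median difference of 0.19. Over all tested probe sets, 49.8% were lower. The brighter Pcp2 probe set had 437.9 and 367.7 on deprived arrays, against 348.9 and 1200 on non-deprived arrays. Its dimmer probe set had 101.2 and 289.1 on deprived arrays, against 57.8 and 311.0 on non-deprived arrays. Non-deprived array 2, which gave the 1200, also had the highest Grin2b signal and the lowest Zic1 signal. A part of cerebellar tissue in the Grin2b difference was not tested.

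Summed over the 7 of 10 excitatory markers with a probe set, the signal was 14236 and 17628 on deprived arrays, against 16346 and 17511 on non-deprived arrays. At the brightest probe set 3 of these 7 genes were lower and 4 higher, with a median difference of 0.02. The lowest was Camk2a at -0.62, without overlap, while Cux1 was higher without overlap, at 0.05. Without overlap, 17.1% of all tested probe sets were lower and 15.1% higher. For all 10 inhibitory markers the sum was 26399 and 32597 on deprived arrays, against 31227 and 35140 on non-deprived arrays. At the brightest probe set 7 of these 10 genes were lower and 3 higher, with a median difference of -0.17. The lowest was Vip, a neuropeptide gene, at -1.19 ± 0.51 (SE), while Lhx6 and Gad2 gave 0.32 ± 0.26 and 0.27 ± 0.52. All were chosen after their values were seen. Vip had 80.4 and 88.5 on deprived arrays, against 313.4 and 230.4 on non-deprived arrays. Both deprived signals lay below the minimum mean signal for testing, so Vip was tested because of its signal in non-deprived cortex. Gad2 was dim too, at 161.6 and 184.6 on deprived arrays, against 110.3 and 158.1 on non-deprived arrays, without overlap. The 7 of 8 astrocyte markers with a probe set summed to 16400 and 18024 on deprived arrays, against 18273 and 16516 on non-deprived arrays. The sums of these 3 lists overlapped between the groups, as did those for oligodendrocytes, endothelium, choroid plexus, cerebellum and the neighbouring striatum, thalamus and hippocampus. Of the 5 tested oligodendrocyte genes, 4 were higher at their brightest probe set, 3 of them without overlap, with a median difference of 0.40. Cldn11 gave 0.45, Mog 0.40 and Mobp 0.47 there, whereas the other 3 Mobp probe sets gave -0.14, -0.59 and -0.64. Among all tested probe sets, 49.8% were lower and 15.1% were higher without overlap. No tested probe set of these oligodendrocyte genes passed the adjusted threshold in limma. The sums did not overlap for microglia, whose 7 markers gave 5822 and 5672 on deprived arrays, against 6495 and 5893 on non-deprived arrays. At the brightest probe set 3 of the 6 tested microglia genes were lower and 3 higher, with a median difference of -0.01. All 6 overlapped between the groups there. Csf1r gave 0.10 at its brighter probe set and -0.83, without overlap, at its dimmer. The sums did not overlap either for oligodendrocyte precursors, where Pdgfra alone of 4 markers had probe sets. They were 942.1 and 1244 on deprived arrays, against 1422 and 1344 on non-deprived arrays. The brighter of the 2 tested Pdgfra probe sets gave -0.24 without overlap, and the other -0.51 with overlap. No marker probe set was at 0 on all arrays, and the part of these cell types in the subunit differences was not tested.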

How the data were processed

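The authors made the deposited intensities with MAS5, per the submitters' processing notes, as 1 linear signal per probe set and array. Its version, scaling target and detection calls are not given in the labels. Of 12488 probe sets, 10855 had a single gene symbol, 396 several and 1237 none. Symbols were updated through Entrez identifiers in a RefSeq table (GRCm38.p6), which matched 10839. Signals are printed as deposited. For fits, each array was scaled to a common 2% trimmed mean, 60.6 (the 20th percentile of mean signals) was added and log2 taken, which understates changes of dim probe sets. The 66 control probe sets and those with a mean signal under 142.9 (the 40th percentile) were left out, leaving 7458. The 2 groups were compared by lmFit and eBayes with trend (limma 3.58.1, R 4.3.3), two-sided, and p-values were adjusted over all 7458 by Benjamini-Hochberg. The fit was also run on simulated data with independent noise on each array, which does not cover any likeness between arrays of the same replicate number. The number of arrays limits the precision.

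Named genes were all member probe sets, up to 3 genes with the smallest p of each related list, the actin and Gapdh controls, the activity genes Fos and Junb, and the 3 probe sets most like Grin2b. Cell type markers were also named, beyond this rule, as was Dlg4. Members, lists and tests were chosen with earlier results of these data known. The series' design text speaks of additional cross-animal comparisons, which may mean that same-numbered arrays share animals, but no label says so. Departures from the group mean correlated across probe sets with r = 0.27 between same-numbered arrays. The fit without a block was kept as the main one. No promoter sequence of Grin2a, Grin2b, Gria1 or Gria3 was printed.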

Additional observations from a re-analysis of the deposited data

How the results depend on the processing

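No member probe set passed an adjusted p of 0.05 in limma under any of the 12 alternative fits, of which the filter at the 60th percentile left 7 members and neither Grin2b, Grin2a nor Grin2d. The lowest adjusted p among members was 0.55, and between 0.11 without deprived array 1 and 1.00 without non-deprived array 2 in the alternatives, and it was 0.21 with the replicate block. At an unadjusted p under 0.05, from 0 to 4 members passed in these fits, against 3, while the share of all probe sets ran from 2.88% to 13.1% and was 9.69% where 4 members passed. Grin2b stayed lower, from -1.89 with a pseudocount of 16 to -1.12 with one at the 40th percentile, and from -1.86 to -1.17 with an array left out. The Grin2a to Grin2b log2 difference stayed above 0, from 2.13 with a pseudocount to 3.51 without deprived array 1. Leaving out an array could not turn the sign of either, since neither the Grin2b signals nor the ratios overlapped between the groups. No other pairing of Grin2a and Grin2b probe sets exists, so that alternative was not run. At 1.2-fold in all pairs, 3 members counted in place of 1, all lower; 5.58% of all tested probe sets were lower in this way.

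With 1 array left out, signs turned for the members Gria2 92947_s_at (-0.075 to 0.22), Gria2 92946_f_at (-0.18 to 0.060) and Grin2d (-1.02 to 0.10). They also turned for Cacng2 (-0.13 to 0.032), Cnih2 (-0.12 to 0.33), Slc1a1 (-0.10 to 0.65), Glul 94852_at (-0.19 to 0.36) and Grik2 (-0.51 to 0.54, and -6.26e-05 with a pseudocount of 16). Not all of these were near 0 in the main fit, where Grin2d was -0.46 and Slc1a1 0.27. Without the filter, Gria4 gave -0.61 and the dimmest Gria2 probe set -0.13. Over all probe sets the count of 8 calls became 1 after quantile normalization, 3 with a common median, 0 without the variance trend (390 at an unadjusted p under 0.05), 40 with the replicate block, and 5 to 90 with an array left out; the cause was not tested. The block changed the calls of Nptx2, Nsf, Src, Camk2a and Ywhag and of no other named probe set. Leaving out a deprived array also brought each of these 5, Nptx1 and Slc1a2 past the threshold in at least 1 fit. Fos did not pass after quantile normalization (adjusted p = 0.059), with a common median (0.36) or without the variance trend (0.73), nor did Norad (0.21, 0.41 and 0.84), which also failed with the filter at the 60th percentile (0.060). Over the probe sets of the naming rule, with Junb from the activity list among them, the call and sign were kept in 345 alternative values, a call was lost in 15 and gained in 17, and the sign changed in 11. Fits with a lone array assume that it varies like the other group.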
